A study of Mus musculus with 18 samples.

Results

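The contractile genes of mouse embryonic fibroblasts (MEFs) were followed through reprogramming to pluripotency as a set of 10 named genes: Acta2, Tagln, Cnn1, Cnn2, Myl9, Tpm1, Tpm2, Tpm3, Tpm4 and Actn1. The genes were taken by name. Of the 10 genes, 9 were listed in each expression table, among 9435 genes in the knockdown (KD) dataset and 9472 in the overexpression (OE) dataset, and Cnn1 was listed in neither. The splicing table held 412 events of the 10 genes among 661941, of which 343 (of 368707 in all) were covered in all 18 libraries and 36 in none of them.

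All libraries were polyA RNA-seq libraries from primary male MEFs that carry the reprogramming factors Oct4, Klf4, Sox2 and c-Myc (OKSM) in the Collagen locus together with M2rtta, so that doxycycline starts reprogramming. In the KD dataset, non-infected MEFs at day 0 (NI) stood against day 12 cells infected with lentiviruses for a scrambled shRNA (shSCR), for 2 shRNAs against Cpsf3 (shCPSF3#1, shCPSF3#2), or for 2 against Hnrnpul1 (shUL1#1, shUL1#2). In the OE dataset, NI MEFs at day 0 stood against day 12 cells infected with an empty retroviral vector (Empty) or with the cDNA of T7-tagged TIA1 (T7-TIA1). CPSF3 is the endonuclease of 3' end processing, while hnRNP UL1 and TIA1 are RNA-binding proteins. The groups follow the sample titles, and a separate time label goes against them for 4 libraries, with day 0 for both of shUL1#2 and day 12 for both NI libraries of the OE dataset. Each of the 9 groups had 2 libraries, and nothing in the labels says that the libraries of a group came from separate cultures, so that p-values measure the spread between these libraries, which may be technical. Day 12 cells received doxycycline and LIF, had been sorted for GFP on day 2, grew on irradiated feeder MEFs, and were harvested together with that layer, so that RNA from feeders and from reprogramming cells cannot be told apart at day 12.

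In each library the expression values were whole multiples of 1 step, to within 0.01 of a step. If 1 step is 1 read, which the sources do not state, the libraries held between 98882289 and 109047542 reads on the listed genes. They held between 398925 and 449204 covered splicing events. Cpsf3 was at 38.6 to 77.1 scaled CPM in the 4 shCPSF3 libraries against 86.7 and 118 in shSCR, with the highest of the 4 in replicate 2 of shCPSF3#2. Hnrnpul1 was at 38.7 to 85.8 scaled CPM with shUL1 against 156 and 185 in shSCR, and Tia1 was at 613 and 469 with T7-TIA1 against 85.6 and 77.0 in Empty. The day 0 cells carried the defining genes of fibroblasts: Col1a1 was at 5158 and 6395 scaled CPM and Vim at 4593 and 4625 in NI of the KD dataset. The tables keep genes with at least 5 CPM in 33% of samples. Cnn1 was unlisted although its splicing events took reads in every library, fewer at day 12. Why it was unlisted was not tested. The NI libraries of the OE dataset stood apart from each other. Replicate 1 was higher than replicate 2 for 9 of 9 contractile genes, by a median of 0.75 (log2), whereas the 17 listed fibroblast markers summed to 23310 scaled CPM in replicate 1 and 53160 in replicate 2.

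Contractile fibroblasts assemble actin and non-muscle or smooth muscle myosin into stress fibres, and the genes for these proteins are classical targets of serum response factor (SRF), which binds the CArG box. Acta2 encodes smooth muscle alpha-actin, the hallmark of the myofibroblast. Tagln (transgelin), Cnn1 and Cnn2 (calponins) bind along the actin filament, Myl9 is a regulatory light chain of myosin, and Actn1 is the alpha-actinin that cross-links the filaments. Tropomyosins are coiled-coil dimers that lie along the actin filament and set which other proteins reach it. Tropomyosin genes make several isoforms, by alternative promoters, mutually exclusive internal exons or alternative last exons, and loss of the mesenchymal programme is an early step of MEF reprogramming.

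The alternative exons on which the splicing results turn are shown first. Tpm1 and Tpm2 each hold a pair of 76-nt internal exons, the alternative forms of exon 6, of which a transcript normally takes 1. In the GENCODE vM21 annotation of mm10 they lie on the minus strand at chr9:67032466-67032541 (upstream) and chr9:67031951-67032026 (downstream) in Tpm1, and at chr4:43519003-43519078 and chr4:43518644-43518719 in Tpm2, all within coding sequence. The Tpm2 upstream exon is the form of fibroblasts and smooth muscle and the downstream exon that of skeletal muscle. Capitals mark the bases that differ between the exons of a pair, 33 of 76 in Tpm1 (56.6% identity) and 35 of 76 in Tpm2 (53.9%).
Tpm1 upstream exon: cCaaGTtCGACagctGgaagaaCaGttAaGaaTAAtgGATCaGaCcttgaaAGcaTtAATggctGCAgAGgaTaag
Tpm1 downstream exon: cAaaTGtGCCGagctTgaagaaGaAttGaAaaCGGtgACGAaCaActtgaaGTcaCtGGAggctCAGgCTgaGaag
Tpm2 upstream exon: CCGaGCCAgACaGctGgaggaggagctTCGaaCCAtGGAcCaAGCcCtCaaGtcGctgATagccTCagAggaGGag
Tpm2 downstream exon: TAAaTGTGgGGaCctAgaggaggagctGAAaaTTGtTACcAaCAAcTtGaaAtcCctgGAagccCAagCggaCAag
Position in the pair went with likeness between the genes: the upstream exons of Tpm1 and Tpm2 shared 64.5% of their bases and the downstream exons 73.7%, against 52.6% and 48.7% for the crossed combinations.

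Actn1 holds a pair of exons of unequal length in the calcium-binding region of the protein. The upstream exon of 81 nt (chr12:80170686-80170766, minus strand, coding in Actn1-201) is the non-muscle form, and the downstream exon (chr12:80170183-80170248, 66 nt, coding in Actn1-202) is the smooth muscle form. The splicing table gives the downstream exon a length of 63 nt, with both ends listed as alternatives.
Actn1 upstream exon: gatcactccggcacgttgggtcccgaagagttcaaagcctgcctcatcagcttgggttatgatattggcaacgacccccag
Actn1 downstream exon: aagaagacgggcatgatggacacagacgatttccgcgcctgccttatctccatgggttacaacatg
Tpm1 also has alternative forms of exon 2, both of 126 nt, of which the upstream 1 (chr9:67048124-67048249) is known as the smooth muscle form. The bases that differ from the downstream form (chr9:67047786-67047911), 66 of 126, are in capitals.
Tpm1 upstream exon 2: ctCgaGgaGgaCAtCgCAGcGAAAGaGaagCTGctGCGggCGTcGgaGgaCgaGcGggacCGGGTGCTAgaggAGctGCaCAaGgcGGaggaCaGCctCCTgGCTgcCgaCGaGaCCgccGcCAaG

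All 9 listed genes fell between day 0 and day 12 in both datasets, with Acta2, Tagln and Myl9 falling most. This comparison asks how the contractile programme changes when MEFs are reprogrammed without a perturbed factor. Levels are given as scaled CPM, the deposited counts per 1000000 reads on a library size scaled for each library, and each dataset was tested in 1 limma fit, over its every group, of log2(scaled CPM + 1). In the KD dataset, the median log2 fold change of the 9 genes in shSCR against NI was -2.41, beside 0.0 over all genes. All 9 passed an adjusted p of 0.05 as lower, where 22.0% of all genes did, and their NI and shSCR libraries did not overlap, as for 77.0% of all genes. In Empty against NI of the OE dataset, again all 9 fell (23.6% of all genes did so, and the groups of 74.3% did not overlap), with a median of -2.79. The plot of the levels by library shows the drop for each gene.

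**Figure D1:**
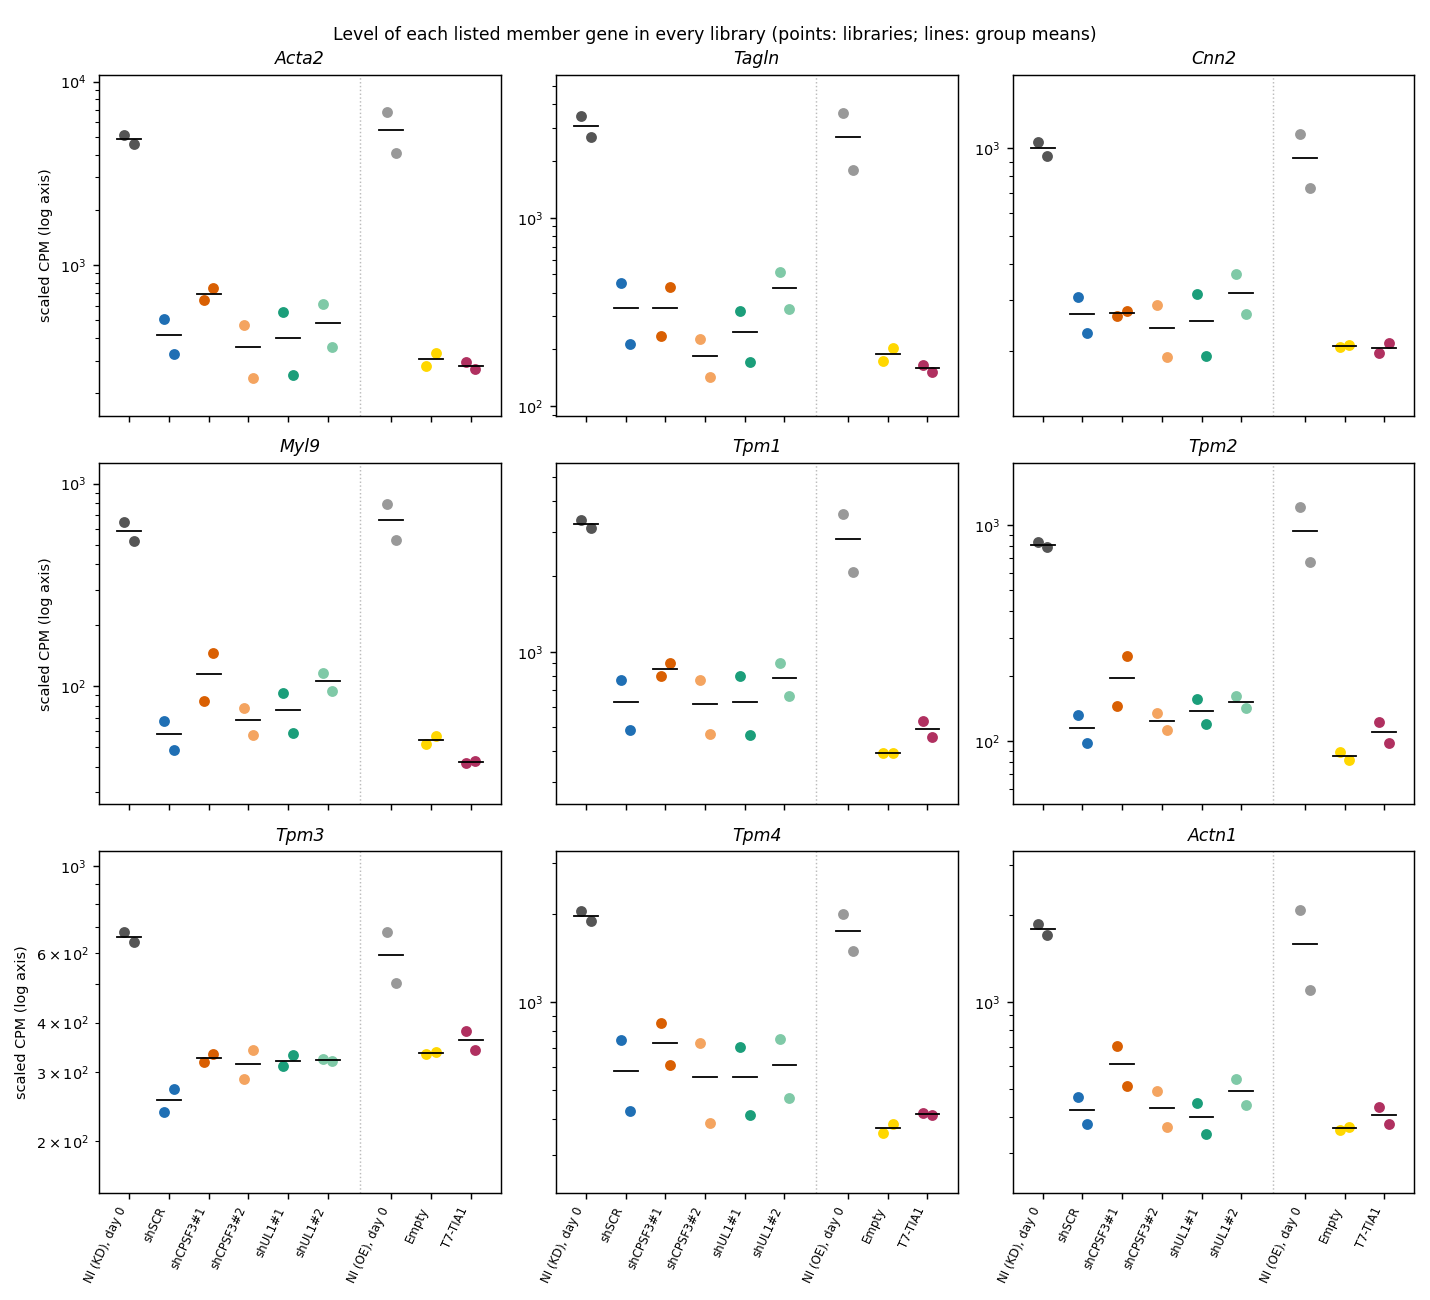
Scaled CPM (log axis) of the 9 listed contractile genes in each of the 18 libraries, with points for libraries, lines for group means, and a dotted line between the KD and OE datasets. In each panel the 4 NI libraries lie above all 14 day 12 libraries; Acta2 spans the widest range and Tpm3 the narrowest.

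Acta2 stood at 5130 and 4558 scaled CPM in NI and at 505 and 327 in shSCR. At day 12 it was at 643 and 744 with shCPSF3#1, 470 and 240.0 with shCPSF3#2, 553 and 250.4 with shUL1#1, and 611 and 357 with shUL1#2. The highest day 12 library, shCPSF3#1 replicate 2, lay far below the lower NI library. The log2 fold change in shSCR was -3.57 (SE 0.46, 11.9-fold lower, limma adjusted p = 0.000655). In OE, Acta2 went from 6830 and 4060 in NI to 282 and 332 in Empty (log2 fold change -4.10, SE 0.26, adjusted p = 0.000974).

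The actin-binding proteins differed in how far they fell. Tagln was at 3491 and 2676 scaled CPM in NI against 448 and 215 in shSCR (log2 fold change -3.30, SE 0.49, limma adjusted p = 0.00121), and at 3602 and 1795 in NI of the OE dataset against 174 and 205 in Empty. Its shSCR libraries differed from each other by more than a factor of 2, yet both lay well below NI. Cnn2, the calponin of non-muscle cells, was at 1056 and 943 in NI and at 307 and 230 in shSCR (log2 fold change -1.90, SE 0.29, adjusted p = 0.00142). Its fall was smaller than that of Tagln in both datasets. Actn1 was at 1868 and 1714 in NI and at 469 and 378 in shSCR (log2 fold change -2.08, SE 0.23, adjusted p = 0.000332), and its fall in Empty was of similar size (-2.05, SE 0.30).

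Cnn1, the calponin of smooth muscle, could be followed only through the reads on its splicing events, in which a read counts once for each event it informs. Its 23 covered events took 223 and 206 reads for each 1000000 reads on all events in NI of the KD dataset and 9.05 and 8.01 in shSCR, a 25.1-fold lower mean. For the OE libraries the values were 350.5 and 312 in NI and 5.31 and 6.41 in Empty, a 56.5-fold lower mean. By the same measure Acta2 was 9.97-fold lower in shSCR and Tagln 7.98-fold, and in Empty Tagln was 12.2-fold lower and Tpm3 1.51-fold, so that Cnn1 fell furthest of the 10 in event reads. Among day 12 libraries it was highest in shCPSF3#1 replicate 2, at 55.7 by this measure against 14.0 in replicate 1. These folds are descriptions without a test.

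Myl9, which carries the phosphorylation that switches on contractile myosin, stood at 646 and 518 scaled CPM in NI and at 67.4 and 48.3 in shSCR (log2 fold change -3.32, SE 0.33, 9.97-fold lower, limma adjusted p = 0.000185). Among the OE libraries it went from 790 and 525 in NI to 51.8 and 57.1 in Empty (log2 fold change -3.54, SE 0.20). In the KD dataset that was close to the log2 fold change of Tagln.

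The tropomyosin genes fell to different extents. Tpm2 was at 830 and 786 scaled CPM in NI and at 132 and 97.6 in shSCR (log2 fold change -2.82, SE 0.27, limma adjusted p = 0.000162). Tpm1 was at 3372 and 3137 in NI and at 772 and 484 in shSCR (log2 fold change -2.41, SE 0.35, adjusted p = 0.00114). Tpm4 was at 2055 and 1906 in NI and at 743 and 424 in shSCR (log2 fold change -1.82, SE 0.43, adjusted p = 0.00989, up to 0.0639 among the alternatives, where it was lost without replicate 1 of NI or replicate 2 of shSCR). Tpm3, expressed in most tissues, fell least, from 679 and 640 in NI to 237 and 272 in shSCR (log2 fold change -1.37, SE 0.13, adjusted p = 0.000144). In the OE dataset the order was again Tpm2 (-3.39), Tpm1 (-2.79), Tpm4 (-2.23) and Tpm3 (-0.81, SE 0.17, adjusted p = 0.0128, lost without either replicate of Empty, at up to 0.0886). NI libraries of Tpm3 were at 681 and 505 scaled CPM there, against 333 and 337 in Empty.

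Levels of different genes were compared per kb of annotated exon. In NI of the KD dataset the order was Acta2 at 2206 ± 184 scaled CPM per kb (SD, n = 2), Tagln at 1551 ± 290, Tpm4 at 899 ± 48, Tpm1 at 502 ± 26, Myl9 at 501 ± 78, Cnn2 at 406 ± 32, Actn1 at 324 ± 20, Tpm2 at 278 ± 11 and Tpm3 at 108 ± 4.5. Tpm1 and Myl9 did not differ beyond their spread. The place of Tpm1 and Tpm4 turns with this division, since the annotation gives Tpm1 6485 nt of exon over 21 transcripts and Tpm4 2203 nt over 2. In scaled CPM as deposited, the mean of Tpm1 was above that of Tpm4 in each of the 9 groups, at 3254 against 1980 in NI of the KD dataset, 628 against 584 in shSCR and 393 against 370.3 in Empty. Per kb, the leading gene in shSCR was Tpm4 at 265 ± 102 scaled CPM per kb, ahead of Acta2 at 190 ± 57 and Tagln at 167 ± 83. The ranges of these 3 overlapped between libraries, while Tpm4 was the highest within each. It was at 337.3 against 229.9 and 225.5 in replicate 1, and at 192.5 against 149.1 and 108.1 in replicate 2. The order was not tested. In Empty the same 3 genes led, with Tpm4 at 168 ± 8.5, Acta2 at 140 ± 16 and Tagln at 95.2 ± 11.

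The unequal falls changed the make-up of tropomyosin transcripts, given here per kb as a description without a test. Tpm1 made 28.1% of the sum of the 4 tropomyosin genes in both NI libraries of the KD dataset and 22.0% and 21.6% in shSCR, and Tpm2 went from 15.4% and 15.7% to 8.42% and 9.71%. Tpm4 was the largest part per kb throughout, at 50.4% and 50.2% in NI and 62.4% and 55.7% in shSCR. Tpm3 made 6.03% and 6.10% in NI, 7.19% and 12.9% in shSCR, 5.63% and 6.30% in NI of the OE dataset, and 17.8% and 17.4% in Empty. The share of Tpm3 was thus higher in each of these day 12 libraries than in NI, with shSCR replicate 1 the closest.

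**Figure D2:**
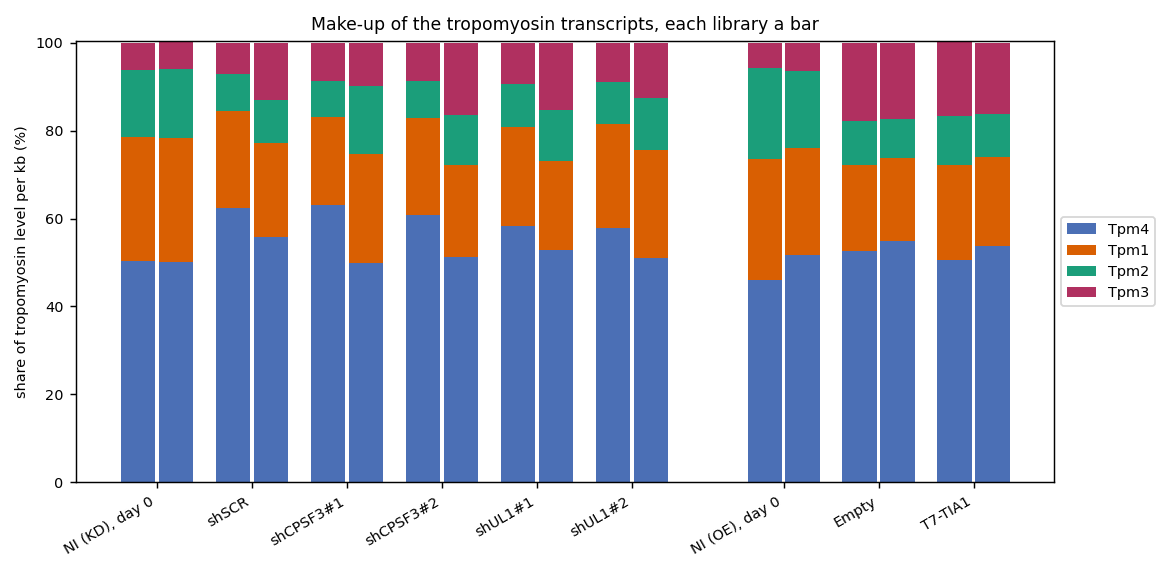
Share of each tropomyosin gene in the summed tropomyosin level per kb (%), with 1 bar for each of the 18 libraries. Per kb of annotated exon, Tpm4 is the largest part in every bar, and the part of Tpm3 grows from 6.03% and 6.10% in NI of the KD dataset to between 7.19% and 16.4% at day 12, and to 16.2% and above in the OE dataset.

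The rest of the actin cytoskeleton fell along with the contractile genes in part. In shSCR against NI 22.0% of all genes fell and 22.5% rose. Of 23 listed genes of the actomyosin list, which holds actins, myosins and their regulators outside the 10, 18 fell and 1 rose in shSCR against NI, with a median log2 fold change of -1.21. Cald1, the caldesmon that works with tropomyosin on the filament, fell from a mean of 2774 to 706 scaled CPM (log2 fold change -2.01, limma adjusted p = 0.001), and Myh10, a non-muscle myosin heavy chain, fell by 1.91 (log2). Of 27 listed linkers between stress fibres and adhesions 19 fell and 1 rose (median -1.29), with Fhl1 (-3.08), the filamin gene Flnc (-2.84), Fhl3 (-2.53) and Pdlim7 (-2.41) falling most. In Empty against NI 17 of 22 and 21 of 27 fell, and 1 and 0 rose, where 23.6% of all genes fell.

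Of the 8 listed genes of the list of SRF and its partners, 4 fell and none rose in shSCR, with a median log2 fold change of -0.67, where 22.0% of all genes fell: the SRF coactivator Mrtfa (log2 fold change -1.33, SE 0.20), Srf itself (-1.25, SE 0.29), Tead1 (-0.97, SE 0.18) and the ternary complex factor Elk4 (-0.51, SE 0.15), with limma adjusted p of 0.00126, 0.00985, 0.00366 and 0.0276. The CArG box was searched by its consensus, on both strands, in RefSeq promoter entries that begin 250 bases before each gene start (GRCm38.p6). It was found in Cnn2, beginning 56 bases before the start of the RefSeq entry and 40 before that of the GENCODE gene, and in Myl9, beginning 161 and 117 bases before them, thus in 2 of 10 promoter entries of the members against 1.47% of 32851 entries in all. Tagln had no entry. No match says only that the letters are not in this window. The boxes are in capitals in the stretches up to the GENCODE genes, at chr10:79988350-79988583 and chr2:156775214-156775419, both on the plus strand.
Cnn2 promoter: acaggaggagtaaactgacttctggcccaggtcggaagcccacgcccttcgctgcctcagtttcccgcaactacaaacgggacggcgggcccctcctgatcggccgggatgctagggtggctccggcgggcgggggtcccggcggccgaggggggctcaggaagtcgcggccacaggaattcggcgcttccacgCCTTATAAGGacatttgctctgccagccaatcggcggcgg
Myl9 promoter: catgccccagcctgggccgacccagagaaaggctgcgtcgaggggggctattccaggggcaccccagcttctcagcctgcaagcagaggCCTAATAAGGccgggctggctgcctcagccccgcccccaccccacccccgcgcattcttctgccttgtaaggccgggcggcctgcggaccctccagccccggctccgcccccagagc

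Markers of other cell types moved between day 0 and day 12 as well, as did many genes (22.5% of all rose in shSCR and 22.0% fell). Of 4 listed genes among 25 epithelial and pluripotency markers 3 rose in shSCR, Krt8, Dsp and Krt18, and the 4 summed to 64.3 and 51.2 scaled CPM in NI and 695 and 413 in shSCR, whereas Cdh1, Epcam, Nanog and Pou5f1 were not listed. Of 18 listed fibroblast markers 7 fell and 1 rose in shSCR, and the sum went from 21340 and 25910 to 11620 and 9304. All 3 listed macrophage genes (of 8) rose, summing to 10.6 and 9.57 in NI and 300.4 and 171 in shSCR, with Ptprc not listed. The pericyte and vascular smooth muscle list had 5 listed genes of 10, of which 3 fell (Cspg4, Lmod1 and Des) and Notch3 rose. From 554 and 473 in NI the sum of these 5 came to 176 and 229.9 in shSCR, and Rgs5 and Myh11 were not listed. Of 7 endothelial markers Tek alone was listed, and it rose. In bulk RNA, fewer contractile cells and less contractile RNA per cell cannot be told apart, and the part of these cell types in the falls was not tested.

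The same 9 genes were lower than in NI with every factor perturbed. With shCPSF3 (2 shRNAs, 4 libraries) all 9 fell against NI, where 19.9% of all genes did (median -2.19). With shUL1 all 9 fell against 19.4% of all genes (median -2.24), and with T7-TIA1 all 9 fell against 22.4% (median -2.48). The call of Tpm4 with shCPSF3 was lost without replicate 1 of NI (adjusted p = 0.0622). That of Tpm3 with T7-TIA1 was lost without either replicate of T7-TIA1 or with only the groups compared in the fit (adjusted p up to 0.128). In these 3 comparisons the NI and day 12 libraries of the 9 genes did not overlap, as for 59.4%, 67.6% and 74.7% of all genes. The extremes were Tagln with shCPSF3 (-3.67), Acta2 with shUL1 (-3.53) and Acta2 with T7-TIA1 (-4.22, SE 0.26), and at the other end Tpm3 in each, at -1.04, -1.04 and -0.70. These comparisons share their NI libraries with those above.

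No contractile gene passed the test between a perturbed factor and its control at day 12 in the fit without a replicate block, and Tpm3 and Actn1 did in fits with one. This comparison asks whether CPSF3, hnRNP UL1 or TIA1 shift the programme beyond what reprogramming does. With shCPSF3 against shSCR 0 of 9 passed, where 26.1% of all genes did, and the median log2 fold change was 0.25. With shUL1 against shSCR 0 of 9 passed, where 10.5% of all genes did (median 0.07). With T7-TIA1 against Empty 0 of 9 passed and also 0 of all 9472 genes by limma (0.0%), of which 393 had an unadjusted p under 0.05.

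Tpm3 came closest to the threshold. It was at 318 and 334 scaled CPM with shCPSF3#1, 287 and 341 with shCPSF3#2, 310 and 330.1 with shUL1#1, and 323 and 320.1 with shUL1#2, against 237 and 272 in shSCR. All 8 knockdown libraries were above both shSCR libraries, and Tpm3 was the single gene of the 9 whose groups did not overlap, as for 37.9% of all genes with shCPSF3 and 37.8% with shUL1. Its log2 difference was 0.33 with shCPSF3 (95% interval 0.08 to 0.59, limma adjusted p = 0.0571) and 0.34 with shUL1 (0.08 to 0.59, adjusted p = 0.0899). With the replicate number as a block over the whole KD dataset, Tpm3 passed in both, at adjusted p = 0.0231 and 0.0354, as the single gene of the 9, where 49.8% and 29.3% of all genes passed. With the block in the day 12 libraries alone, added after seeing the data, it passed at adjusted p = 0.0129 and 0.0185, where 59.2% and 42.2% of all genes did. It also passed with shCPSF3 when replicate 1 of shCPSF3#2 was left out.

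Actn1 also passed with shCPSF3 under the block in the day 12 libraries alone (log2 difference 0.27, limma adjusted p = 0.0273, against 0.333 without a block). It was at 708 and 514 scaled CPM with shCPSF3#1 and at 495 and 369 with shCPSF3#2, against 469 and 378 in shSCR, so that the groups overlapped while replicate 1 was the higher in each.

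Myl9 came next without a block, with larger differences and a wider spread. It was at 84.8 and 145 scaled CPM with shCPSF3#1, 78.0 and 57.6 with shCPSF3#2, 92.9 and 58.9 with shUL1#1, and 116 and 94.9 with shUL1#2, against 67.4 and 48.3 in shSCR. The lowest library of each factor lay between the shSCR libraries. Its log2 difference was 0.59 with shCPSF3 (95% interval -0.06 to 1.24) and 0.62 with shUL1 (-0.03 to 1.27). For Acta2 the intervals ran from -0.68 to 1.17 with shCPSF3 and from -0.89 to 0.96 with shUL1, so that changes within these ranges were not excluded.

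**Figure D3:**
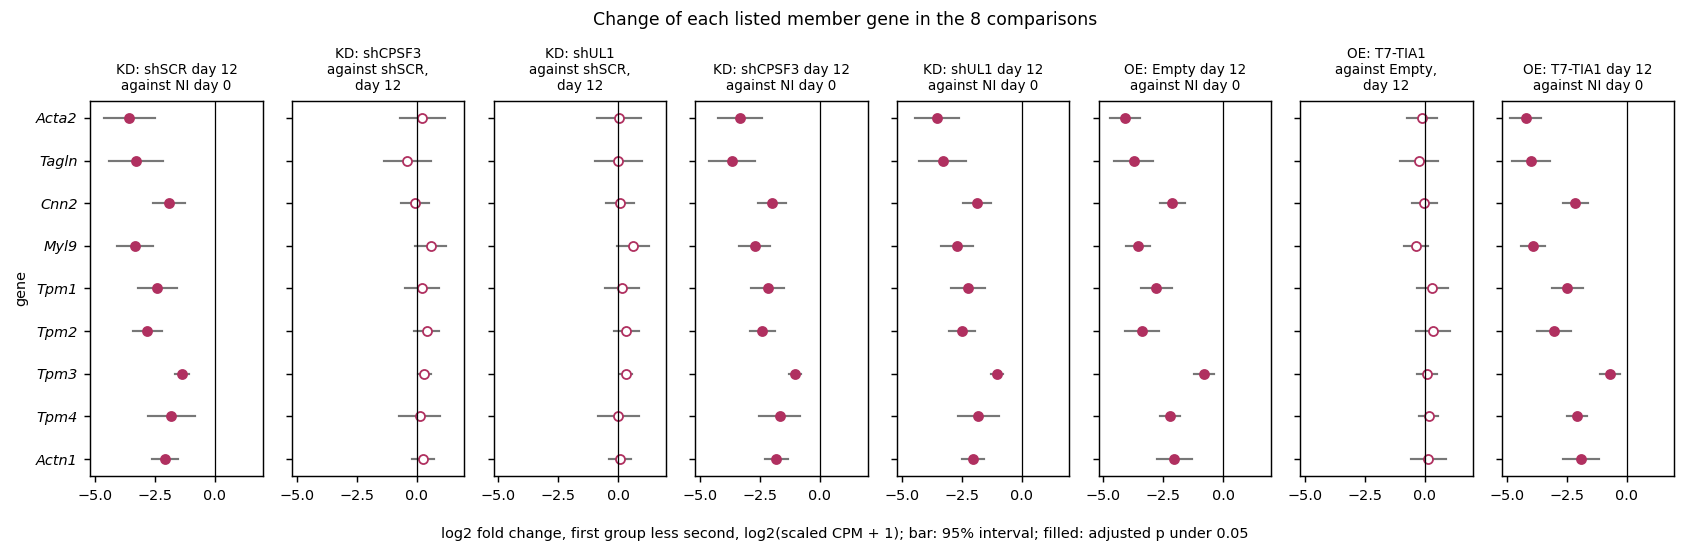
Log2 fold change of each listed gene in the 8 comparisons, first group less second, with 95% intervals; filled points passed an adjusted p of 0.05. All 9 genes are filled and below 0 in the 5 comparisons with NI, from -4.22 to -0.70, and all are open in the 3 comparisons within day 12.

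With T7-TIA1, 7 of 9 genes did not overlap with Empty, where 51.9% of all genes did not, and 4 were lower and 5 higher. Myl9 was at 41.8 and 43.0 scaled CPM against 51.8 and 57.1 in Empty (log2 difference -0.35, 95% interval -0.85 to 0.15), and Tpm1 was at 526 and 455 against 394 and 392 (0.32). The differences lay between -0.35 and 0.36, and none passed. The shRNA pairs for CPSF3 and hnRNP UL1 were also set against each other, and 0 of the 9 genes differed between the factors, where 4 of 9435 genes (0.0424%) did. The smallest adjusted p was 0.663.

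Other fibroblast genes were higher with the knockdowns in the same libraries. Of 18 listed fibroblast markers, mostly collagens and other matrix genes, 12 rose with shCPSF3 and 10 with shUL1 against shSCR, with medians of 1.46 and 1.13 (log2), where 16.7% and 7.31% of all genes rose. Their sum was 22670 to 36120 scaled CPM with shCPSF3 and 20010 to 39800 with shUL1, against 11620 and 9304 in shSCR. Of the 23 listed actomyosin genes none rose or fell with either factor by limma. Of the linkers 4 rose and 1 fell with shCPSF3, and 3 rose and 1 fell with shUL1, where 9.35% and 3.15% of all genes fell, so that 5 and 4 of 27 passed in either direction beside the 26.1% and 10.5% of all genes. All 3 listed macrophage genes rose with shCPSF3, to sums of 429 to 1814, and all 4 listed epithelial and pluripotency genes fell, to sums of 55.8 to 285. With shUL1 none of these passed, with medians of 0.71 for the macrophage genes (sums of 259 to 1000) and -1.51 for the epithelial and pluripotency genes (sums of 109 to 315). The part of these cell types in the contractile levels was not tested, and no test was run of 1 list against another.

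Replicate 1 and 2 differed in the level of the contractile genes in most groups, NI included. In NI of the KD dataset replicate 1 was higher for 9 of 9 genes, by a median of 0.12 (log2). In shSCR, shCPSF3#2 and shUL1#1, replicate 1 was higher than replicate 2 for 8 of 9 genes, and in shUL1#2 for 9 of 9. In T7-TIA1 it was higher for 7 of 9, and in shCPSF3#1 and in Empty for 2 of 9. Over all genes, the differences between replicate 1 and 2 correlated at r = 0.674 to 0.949 across the 10 pairs of day 12 groups of the KD dataset, and at -0.127 to 0.0218 between NI and these groups. In the OE dataset they correlated at 0.171 between NI and Empty, 0.308 between NI and T7-TIA1, and 0.186 between Empty and T7-TIA1. The labels do not say what a replicate number stands for, and its effect on the calls is given by the block above.

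Genes with the profile most like that of the 9 across the 12 KD libraries were Bag2 (Pearson r 0.9915), Fez2 (0.9904), Wdr1 (0.99), Myl12a (0.9893) and Tubb6 (0.9892), by the mean of the standardised members. Over the 6 OE libraries the same genes had r of 0.9942, 0.9586, 0.98, 0.999 and 0.9959. Bag2 is a cochaperone of Hsp70, Wdr1 promotes the disassembly of actin filaments, and Myl12a is a regulatory light chain of non-muscle myosin. Tubb6, a beta-tubulin, fell from a mean of 539.6 to 58.4 scaled CPM in shSCR (log2 fold change -3.20). All points share the step from day 0 to day 12, which such an r mostly reads, so no p is given.

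Few splicing events of these genes moved by a large PSI, as in all genes. Of the 343 events covered everywhere, 7 (2.04%, against 2.99% of all 368707 such events) differed by 10 or more in percent spliced in (PSI) between any group means of a dataset: the exon pairs of Tpm1, Tpm2 and Actn1, and an intron of Tpm2. The splicing rule called an event when mean PSI differed by at least 10 and the libraries of the groups were at least 5 apart. By this rule 2 of 347 events were called in shSCR against NI (1.22% of all events), 2 of 346 with shCPSF3 against shSCR (0.428%) and 2 of 347 with shUL1 against shSCR (0.368%), each time the Actn1 pair. The shUL1 calls were lost when replicate 1 of shSCR was left out, which leaves 1 library in that group. With shCPSF3 the count was 0 at a minimum of 15 PSI, where 939 of all events were called, beside 1712 at 10 PSI. None was called in shCPSF3 against NI (0.411%), shUL1 against NI (0.453%), Empty against NI (0.679%) or T7-TIA1 against Empty (0.342%). With T7-TIA1 against NI 3 of 346 were called (0.721%), the Tpm2 pair and the upstream Actn1 exon.

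A test on the reads was run beside the rule, with limma on the log2 ratio of inclusion to exclusion reads. It adds 1 read to both, which by construction moves the ratio where a gene's reads fall and the rare form has few. In shSCR against NI 46 of 291 events were called (2.22% of all events), of which 31 differed by less than 1 PSI. With the added read set in proportion to depth, an alternative chosen after seeing the data, 10 were called (0.928%), and the events below are those called both ways. Both ways called 10 events in shSCR against NI, 8 with shCPSF3 against NI (by the 2 forms 47 and 8, 1.15% and 0.276% of all events), and 14 with shUL1 against NI (51 and 14, 1.25% and 0.371%). They also called 3 events with shCPSF3 against shSCR (7 and 3, 0.553% and 0.331%) and 0 with shUL1 against shSCR (0.182% and 0.122%). In the OE dataset 0 of 271 events were called in Empty against NI (0.0102% and 0.00183% of all events), T7-TIA1 against Empty (0.00219% and 0.0%) or T7-TIA1 against NI (0.015% and 0.00402%), while 108, 8 and 117 had an unadjusted p under 0.05 (39.9%, 2.95% and 43.2%, beside 11%, 4.76% and 11.3% of all events). In the KD dataset these were 155 of 291 in shSCR, 153 with shCPSF3 and 179 with shUL1 against NI (53.3%, 52.6% and 61.5%, beside 17.6%, 15.3% and 15.3%), and 36 with shCPSF3 and 34 with shUL1 against shSCR (12.4% and 11.7%, beside 13.6% and 10.6%). All of these p-values come from the form with 1 read added. With only the libraries of the groups compared in the fit, 0 events were called in any comparison, of these genes or of all, so that every call of this test rests on the spread shared over all groups. With the replicate block, 8 events were called with shCPSF3 against shSCR (0.794% of all events) and 1 with shUL1 (0.24%), the 1107-nt intron of Tpm1 that holds its upstream exon 2 (lower, adjusted p = 0.0447). With the block in the day 12 libraries alone the counts were 4 (0.457%) and 0 (0.0585%).

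The 4 events called with shCPSF3 under that last block are named for those calls, and all 4 were lower than in shSCR. They are the upstream 76-nt exon of Tpm1 described below, the 1107-nt Tpm1 intron, a 79-nt Tpm1 exon and an intron of Actn1. The intron of Tpm1 was at 2.48 and 1.2 PSI in shSCR and 0.61 to 0.95 with shCPSF3 (log2 read ratio -1.25, limma adjusted p = 0.044). It was at 0.18 and 0.16 in NI, so that the shCPSF3 libraries stayed above day 0. The 79-nt exon (chr9:67029664-67029742) was at 2.59 and 4.85 PSI in shSCR, 0.84 to 1.72 with shCPSF3, and 1.45 and 0.99 in NI (-1.66, adjusted p = 0.025). The 962-nt Actn1 intron (chr12:80170767-80171728) was at 4.64 and 3.63 PSI in shSCR, 2.2 to 2.69 with shCPSF3, and 2.31 and 2.72 in NI (-0.74, adjusted p = 0.0449). In each the shCPSF3 libraries lay below both shSCR libraries. The block in the day 12 libraries alone was chosen after seeing the data, and the 79-nt exon and the Actn1 intron passed under no other block and in neither form without one (adjusted p = 0.0513 and 0.0677 with the block over the whole dataset, 0.0855 and 0.0821 without a block, and 0.137 and 0.107 with the added read in proportion to depth). The Tpm1 intron passed under both blocks (0.0302 over the whole dataset) and missed without one (0.103).

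**Figure D4:**
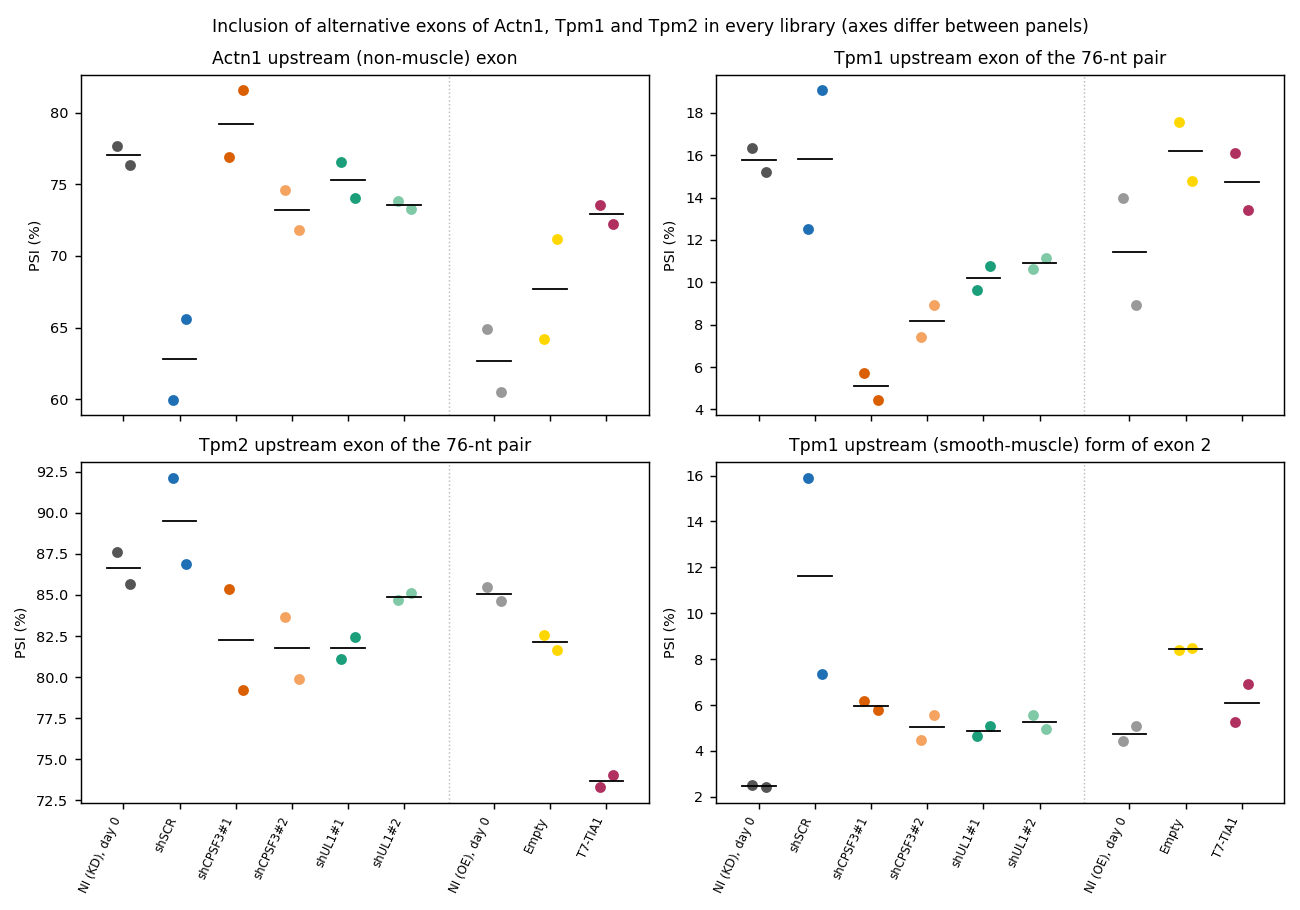
PSI (%) of the upstream exons of Actn1, Tpm1 and Tpm2 and of the upstream 126-nt exon of Tpm1 in each library, with points for libraries, lines for group means, and axes that differ between panels. The shSCR libraries are the lowest of the KD dataset for Actn1, at 59.96 and 65.63, and the shCPSF3 libraries are the lowest for Tpm1, at 4.46 to 8.95.

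In Actn1, inclusion of the non-muscle exon dropped from day 0 to day 12 in shSCR, and it was higher again with shCPSF3. The upstream exon was at 77.7 and 76.4 PSI in NI, 60.0 and 65.6 in shSCR, 76.9 and 81.6 with shCPSF3#1, 74.6 and 71.8 with shCPSF3#2, 76.6 and 74.0 with shUL1#1, and 73.9 and 73.3 with shUL1#2, from 3197 to 17660 reads a library. Both shSCR libraries lay below the other 10 KD libraries. The mean was 14.2 PSI lower in shSCR than in NI (log2 read ratio -0.99, SE 0.17, limma adjusted p = 0.023). With shCPSF3 it was 13.4 higher than in shSCR (0.94, SE 0.14, adjusted p = 0.0332). With shUL1 it was 11.6 higher (0.79, SE 0.15), which the rule called and the read test did not (adjusted p = 0.0869).

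The downstream, smooth muscle exon of Actn1 gave the mirror image. It rose by 16.3 PSI in shSCR against NI (limma adjusted p = 0.012), fell by 14.2 with shCPSF3 against shSCR (adjusted p = 0.0257), and was 11.5 lower with shUL1 (adjusted p = 0.0815). With the added read in proportion to depth it passed in the first 2 comparisons (0.0221 and 0.0381), and the upstream exon passed in the first (0.0412) and missed in the second (0.0505). The 2 exons share reads, so they are 1 observation. Over the alternatives, the upstream exon passed in 6 of 11 for shSCR against NI (adjusted p = 0.0234 to 0.193) and in 5 of 16 for shCPSF3 against shSCR (0.0328 to 0.248). Under the block in the day 12 libraries alone the latter was lost (upstream 0.0668, downstream 0.0521), and under that over the whole dataset both exons passed (0.0395 and 0.0302).

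In the OE dataset the Actn1 exon was not called lower at day 12. The upstream exon was at 64.9 and 60.5 PSI in NI, 64.2 and 71.2 in Empty and 73.6 and 72.2 with T7-TIA1. Its day 0 libraries were thus below those of the KD dataset and near the level of shSCR. T7-TIA1 exceeded NI by 10.2 PSI, which the rule called and the read test did not (limma adjusted p = 0.305), and Empty by 5.04. The change from day 0 to day 12 in shSCR less that in Empty was -1.32 in the log2 read ratio (SE 0.26, unadjusted p = 0.000256 by limma). With an adjusted p of 0.299 over 311889 events it was not shown to differ between the datasets, nor shown to be alike. Of 301 events of the 10 genes 0 differed so (0.00289% of all events, or 0.0016% with the added read in proportion to depth). The 2 other annotated pairs of Actn1 were nearly constant, between 0.0 and 0.54 PSI for 3 of their exons and between 99.7 and 99.9 for the other.

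In Tpm1, the upstream 76-nt exon was included less with shCPSF3 than in shSCR and in NI. It was at 16.4 and 15.2 PSI in NI, 12.5 and 19.1 in shSCR, 5.73 and 4.46 with shCPSF3#1, and 7.40 and 8.95 with shCPSF3#2. All 4 shCPSF3 libraries were below all others of the dataset, since shUL1 was at 9.64 and 10.8 (shUL1#1) and at 10.6 and 11.2 (shUL1#2). The mean was 9.18 PSI lower with shCPSF3 than in shSCR, just short of the rule (log2 read ratio -1.42, SE 0.20, limma adjusted p = 0.0233, or 0.0406 with the added read in proportion to depth). Against NI it was 9.15 lower (-1.45, SE 0.19, adjusted p = 0.0149, or 0.0383). The downstream exon rose correspondingly, from 88.1 and 81.4 in shSCR to between 91.1 and 95.3 with shCPSF3. The first call held in 8 of 16 alternatives, both replicate blocks included (adjusted p = 0.0267 and 0.0478), and the second in 7 of 15, with adjusted p up to 0.197 and 0.116.

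From NI to shSCR the upstream exon of Tpm1 moved by 0.02 PSI (log2 read ratio -0.03, SE 0.22). With shUL1 the upstream exon was at a mean of 10.5 PSI against 15.8 in shSCR, and this did not pass (limma adjusted p = 0.256). The log2 read ratio was 0.78 lower with shCPSF3 than with shUL1 (SE 0.16, unadjusted p = 0.000801 by limma, adjusted p = 0.749), where 0.0% of all events differed between the factors in either form of the test. For the OE libraries the exon was at 14.0 and 8.91 in NI, 17.6 and 14.8 in Empty and 16.1 and 13.4 with T7-TIA1, with overlapping libraries at day 12.

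In Tpm2, where the upstream exon is the major form, the lowest inclusion was with T7-TIA1. It was at 85.5 and 84.6 PSI in NI of the OE dataset, 82.6 and 81.6 in Empty and 73.3 and 74.0 with T7-TIA1, from 2170 to 31760 reads a library. The T7-TIA1 libraries were below all others of the series. The rule called the exon as 11.4 PSI lower than in NI, and the downstream, skeletal muscle exon as 11.5 higher, whereas the read test did not pass (limma adjusted p = 0.114 and 0.122). Against Empty the upstream exon was 8.45 lower (log2 read ratio -0.71, SE 0.13, adjusted p = 0.995). In the KD dataset it was at 87.6 and 85.7 in NI and 92.1 and 86.9 in shSCR, at 79.2 to 85.4 with shCPSF3, and at 81.1 to 85.1 with shUL1, with no call.

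The smooth muscle form of Tpm1 exon 2 rose in shSCR. The upstream 126-nt exon was at 2.52 and 2.42 PSI in NI and at 15.9 and 7.34 in shSCR (log2 read ratio 2.29, SE 0.31, limma adjusted p = 0.0111, or 0.0263 with the added read in proportion to depth). Replicate 1 of shSCR was far above replicate 2, and both were above all 4 NI libraries of the series. The knockdown libraries lay between 4.49 and 6.16, and none of these comparisons passed. Among the OE libraries the exon was at 4.43 and 5.09 in NI, 8.42 and 8.50 in Empty and 5.25 and 6.93 with T7-TIA1 (adjusted p = 0.238 in Empty against NI).

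A 32-nt alternative donor site of Myl9 went down in shSCR, from 3.66 and 4.22 PSI in NI to 1.18 and 2.11. It stood between 3.33 and 4.33 in the 8 knockdown libraries. With the replicate block over the whole KD dataset it passed as higher with shCPSF3 than in shSCR (limma adjusted p = 0.0326). It missed with shUL1 (0.0522), and with both under the block in the day 12 libraries alone (0.0586 and 0.092). The changes were of a few PSI on a rare form.

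Among factors known to act on tropomyosin or actinin exons, 11 of 16 were listed in the KD dataset, and 4 fell in shSCR against NI, where 22.0% of all genes did: Mbnl1 (log2 fold change -1.46), Celf2 (-1.43), Ptbp2 (-0.56) and Rbfox2 (-0.40). Mbnl1, Celf2 and Rbfox2 rose with shCPSF3 against shSCR (1.02, 0.78 and 0.64, limma adjusted p = 0.00628, 0.0196 and 0.0034), and these 3 genes rose with shUL1 too (0.67, 0.88 and 0.41, adjusted p = 0.0447, 0.0259 and 0.0278). These are 3 of 11 in each, where 16.7% and 7.31% of all genes rose, and nothing particular to these factors is read from the counts. Ptbp1, the repressor of muscle exons best known from tropomyosin, was 0.55 lower (log2) in shSCR than in NI, which did not pass (adjusted p = 0.14). It fell against NI with shCPSF3 (-0.87, adjusted p = 0.0183) and with shUL1 (-0.68, adjusted p = 0.0483). Against shSCR neither passed (limma adjusted p = 0.318 and 0.742). In Empty against NI of the OE dataset Ptbp1 was at -0.02 (adjusted p = 0.928). The part of these factors in the exon changes was not tested.

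Some retained introns of the contractile genes were called higher at day 12 in the KD dataset and none in the OE dataset. Between shSCR and Empty the change from day 0 was not shown to differ for any event of the 10 genes, introns included (0 of 301, smallest adjusted p = 0.254 by limma). Of 77 introns tested, those called both ways were 5 in shSCR against NI, where 0.92% of all introns were called higher and 0.204% lower. They were 6 with shCPSF3 (0.188% higher and 0.107% lower) and 14 with shUL1 (0.371% higher and 0.0882% lower), all of them higher than in NI and 0 lower. Of 78 introns of the 10 genes covered throughout, 82.1% and 75.6% lay above the NI mean in the shSCR libraries and 64.1% to 82.1% in the knockdown libraries, beside 54.2% and 49.8%, and 39.1% to 53.2%, of all introns. The OE shares were 53.8% and 64.1% in Empty and 57.7% and 65.4% with T7-TIA1, beside 35.3% to 48.5% of all introns, and the NI libraries themselves were at 32.1% and 64.1%, so that the day 12 libraries overlapped with day 0. The median PSI of the 78 introns stayed low, at 0.23 and 0.30 in NI and 0.55 and 0.42 in shSCR.

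**Figure D5:**
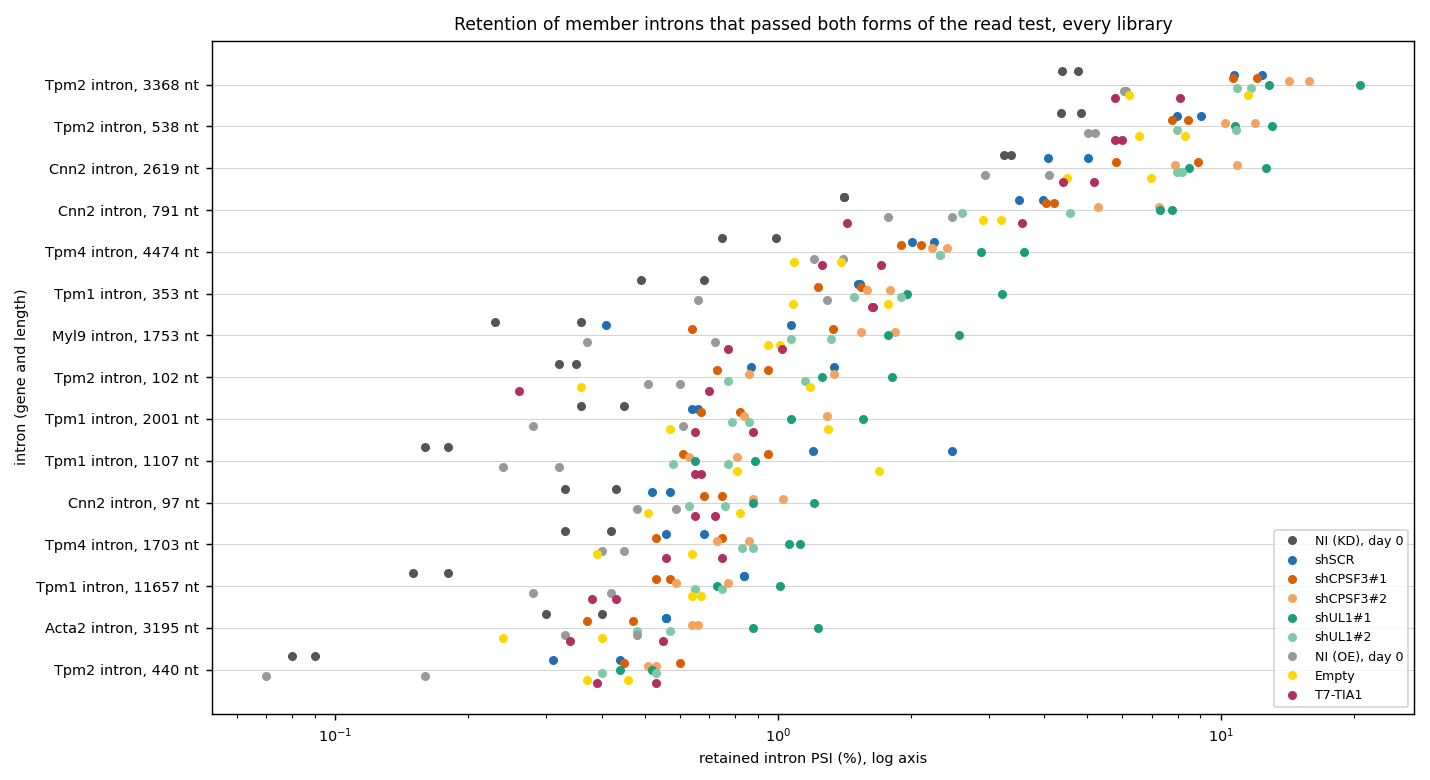
PSI (%, log axis) of the 15 introns called both ways in at least 1 comparison with NI, with 1 point per library coloured by group. In each row the KD day 0 points lie to the left of the shSCR and shUL1#1 points; the Tpm2 intron of 3368 nt reaches the highest value, 20.6.

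The highest of them was the 3368-nt intron of Tpm2 (chr4:43514862-43518229). It was at 4.38 and 4.76 PSI in NI, 12.4 and 10.7 in shSCR, 10.7 to 15.8 with shCPSF3 and 10.9 to 20.6 with shUL1 (limma adjusted p = 0.0185, 0.0103 and 0.0083 against NI). The day 12 libraries of the KD dataset all lay above NI. In the annotation 33.9% of its bases lie in exons of other transcripts, and Tpm2-204 ends inside it, so the value can hold alternative last exons as well as retention. For OE it was at 6.12 and 6.05 in NI and 11.5 and 6.22 in Empty, with no call.

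Introns of Cnn2 and Tpm4 without annotated exons also rose. The 791-nt intron of Cnn2 (chr10:79991482-79992272) was at 1.41 and 1.41 PSI in NI, 3.51 and 3.97 in shSCR (not called both ways), at 4.04 to 7.26 with shCPSF3 (limma adjusted p = 0.00864) and at 2.61 to 7.78 with shUL1 (0.00785). The 4474-nt intron of Tpm4 (chr8:72147268-72151741) was at 0.75 and 0.99 in NI, 2.25 and 2.01 in shSCR, 1.90 to 2.41 with shCPSF3 and 2.32 to 3.59 with shUL1 (adjusted p = 0.00844, 0.00786 and 0.00368). Both were spliced out of most transcripts in each library. The intron of Tpm2 next to its exon pair (chr4:43518465-43519002) holds the downstream exon, and annotated exons cover all of its 538 bases. It was at 4.84 and 4.35 in NI against 7.96 and 9.05 in shSCR. It was called both ways with shCPSF3 and shUL1, and not in shSCR with the added read in proportion to depth (0.0663). In Acta2 the single intron called, of 3195 nt with shUL1, went from 0.30 and 0.40 in NI to between 0.48 and 1.23.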

How the data were processed

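Gene expression and splicing were measured by polyA RNA-seq in 18 libraries of 9 groups, with groups taken from the sample titles, which a time label contradicts for 4 libraries. The expression values are a signal, deposited by the authors as CPM on a scaled library size, made with STAR (2.7.1a) on mm10 and edgeR (3.16.5), and kept for genes with at least 5 CPM in 33% of samples and a coefficient of variation of at least 0.2. The strand setting of the gene counts is not given in the sources used here, and antisense genes overlap Tagln, Tpm4 and Actn1. Reads shared between near-identical paralogs of the actins and tropomyosins make their levels uncertain. The splicing values are percent spliced in (PSI, 0 to 100%), which the authors computed with vast-tools, run with strand, and deposited beside the inclusion and exclusion reads. An event counted as covered with a score of at least VLOW (10 reads).

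From these, log2(scaled CPM + 1) was fitted with limma (3.58.1, R 4.3.3) with an intensity trend, and fold changes on this scale understate those of low genes. The 2 shRNAs of a factor entered as the mean of their groups. Splicing was called by the rule of the study's methods (a difference of 10 PSI, with groups 5 PSI apart) and by limma on log2((inclusion + 1)/(exclusion + 1)), weighted by reads with a variance floor of 0.05. P-values were adjusted by Benjamini-Hochberg over all genes or events, at 0.05. Simulated data (20000 events) gave 85 of 100 changes of 1.5 (log2) and 100 of 100 of 3.0 in shSCR against NI, with 12 of 19800 unchanged events called. In Empty against NI they gave 75 and 100 of 100, with 3 of 19800 called. The changes were set in events of intermediate inclusion, and the rarest forms were not simulated. Calls on rare forms, such as most introns here, were thus not checked by it. Splicing reads ranged from 229815194 to 266010608 a library. Exon sequences and loci came from GENCODE vM21.

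The members and the lists were chosen with earlier results of these data known. All members, the 5 genes of highest correlation with their mean profile, the members' events with 10 PSI of span or a call, and examples from the lists by size of change were named. The 2 libraries of a group share no stated culture. The alternatives of pseudocount, filter, scaling, fit, weights, shRNA and replicate are given at the end, of which the added read in proportion to depth, the crossed block and the block in the day 12 libraries alone were chosen after seeing the data.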

Additional observations from a re-analysis of the deposited data

How the results depend on the processing

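The falls of the 9 genes from day 0 to day 12 kept their direction under each alternative run, and between 8 and 9 of 9 stayed called. Tests on counts (edgeR, DESeq2) were planned and not run, since the tables hold scaled values and the reads behind a step are inferred. Within day 12, 1 gene (Tpm3) was called with shCPSF3 and 1 with shUL1 under the replicate block, 2 (Tpm3 and Actn1) and 1 (Tpm3) under the block in the day 12 libraries alone, and 0 to 1 with shCPSF3 when 1 library was left out. The labels do not say that a replicate number marks a shared culture or day. Deviations of same-numbered libraries correlated at r = 0.674 to 0.949 among day 12 groups of the KD dataset and at -0.127 to 0.0218 between these and NI, and those of PSI at 0.103 to 0.254 among the day 12 groups. Under the block 67, 8, 1, 51 and 68 splicing events were called in shSCR against NI, shCPSF3 against shSCR, shUL1 against shSCR, shCPSF3 against NI and shUL1 against NI, beside 46, 7, 0, 47 and 51, in that order, and over all events 9457, 2373, 718, 4997 and 5532 beside 6638, 1653, 544, 3449 and 3744, and the block in the day 12 libraries alone called 4 in shCPSF3 against shSCR. The block over the dataset changed no other count of calls of the 10 genes by 1.5 times. Over all events of the OE dataset it gave 96 calls in Empty and 296 in T7-TIA1 against NI, beside 28 and 41. Crossing the numbers of NI gave 70 events in shUL1 against NI and 9 genes. Over all events and genes it gave 6142 and 5681, beside 3744 and 4045 without a block.

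The splicing read test depended most on the processing, for all events as for those of these genes. With 0.5 reads added, 18 events were called in shSCR against NI, 4 in shCPSF3 against shSCR, 12 in shCPSF3 against NI and 17 in shUL1 against NI (2786, 904, 870 and 1051 of all events). With the added read in proportion to depth the counts were 10, 3, 8 and 14 (2775, 990, 826 and 1109), and with PSI in percent 5, 3, 0 and 1 (3501, 1648, 1131 and 1254). With only the groups compared they were 0, 0, 0 and 0, and 0 of all events. Without weights 0 were called in shCPSF3 against shSCR (63 of all), and 1 each in Empty and T7-TIA1 against NI (230 and 393). With shRNA 1 only, 4 were called in shCPSF3 against shSCR and 10 against NI (871 and 1148), and with shRNA 2 only 0 and 17 (111 and 931), and 11 in shUL1 against NI (844). With 1 library left out, 5 to 17 events were called in shSCR against NI, 0 to 4 in shCPSF3 against shSCR, 0 to 3 in shUL1 against shSCR, 2 to 18 in shCPSF3 against NI and 3 to 25 in shUL1 against NI, beside 518 to 2303, 60 to 847, 17 to 236, 98 to 1422 and 152 to 1308 of all events.

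By the PSI rule, a minimum of 15 PSI left 1 event in shSCR against NI, 0 in shCPSF3 and 0 in shUL1 against shSCR, and 0 in T7-TIA1 against NI. Over all events it left 2439, 939, 756 and 1317, beside 4663, 1712, 1502 and 2758 at the main setting. With shRNA 1 only it called 4 in shCPSF3 against shSCR, 2 in shCPSF3 against NI and 1 in shUL1 against NI (3658, 2623 and 2793 of all events). With shRNA 2 only it called 1 in shCPSF3 against NI (2520 of all). With both shRNAs the counts over all events were 1712, 1557 and 1731 in these 3 comparisons. With 1 library left out the ranges were 2 to 5 in shSCR against NI (5 without shSCR replicate 2), 2 to 4 in shCPSF3 against shSCR, 0 to 3 in shUL1 against shSCR, 0 to 1 in shUL1 against NI and 2 to 6 in T7-TIA1 against NI (6 without T7-TIA1 replicate 2).

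Directions turned only among differences that were not called. With shCPSF3 against shSCR, shRNA 2 only gave log2 differences of -0.275 for Acta2, -0.026 for Tpm1 and -0.081 for Tpm4, and shRNA 1 only 0.032 for Tagln and 0.017 for Cnn2. With shUL1 against shSCR, shRNA 1 only gave -0.127 for Acta2, -0.404 for Tagln, -0.116 for Cnn2, -0.005 for Tpm1, -0.063 for Tpm4 and -0.086 for Actn1. Scaling to equal sums gave -0.029 for Tagln and -0.02 for Tpm4, and scaling to median ratios -0.014 and -0.006. Leaving out 1 library moved shCPSF3 against shSCR over -0.066 to 0.557 for Acta2, -0.907 to 0.15 for Tagln, -0.29 to 0.124 for Cnn2, -0.114 to 0.559 for Tpm1 and -0.267 to 0.541 for Tpm4. It moved shUL1 against shSCR over -0.275 to 0.349 for Acta2, -0.528 to 0.529 for Tagln, -0.145 to 0.268 for Cnn2, -0.167 to 0.506 for Tpm1, -0.394 to 0.413 for Tpm4 and -0.091 to 0.221 for Actn1, and T7-TIA1 against Empty over -0.236 to 0.002 for Acta2 and -0.082 to 0.037 for Cnn2.

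Among log2 read ratios, the upstream Tpm1 exon turned in shSCR against NI with PSI in percent, to a difference of 0.02 PSI, and its log2 read ratio ran from -0.385 to 0.332 with 1 library left out, and the downstream exon from -0.302 to 0.466, or from -0.036 to 0.459 in T7-TIA1 against Empty. The downstream Tpm2 exon ran from -0.209 to 0.244 in shSCR against NI. The 3368-nt Tpm2 intron was at -0.038 with shRNA 1 only of shCPSF3 and -0.039 with shRNA 2 only of shUL1 against shSCR, and ran from -0.826 to 0.136 in T7-TIA1 against Empty and from -0.063 to 0.458 against NI. In shCPSF3 against NI with shRNA 1 only, the upstream Actn1 exon was at 0.193 and the downstream at -0.067, and the upstream ran from -0.154 to 0.053 with 1 library left out. The cause of these changes was not tested, beyond the fewer libraries in a fit.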
